A study of Mus musculus with 8 samples.

Results

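Notch signaling passes information between touching cells. Ligands of the Jagged and Delta-like families on one cell bind Notch receptors on its neighbour, ADAM proteases and γ-secretase then cut the receptor, and its freed intracellular domain enters the nucleus, where it binds RBPJ and switches on genes of the HES and HEY families and feedback inhibitors such as Nrarp. In the pancreas the pathway keeps progenitor cells undifferentiated, and it is known to be active again in acinar-to-ductal metaplasia and in pancreatic ductal adenocarcinoma (PDAC). The genes described here were 10 members of this pathway chosen by name from the 34478 genes measured, namely the receptors Notch1, Notch2 and Notch3, the ligands Jag1, Jag2 and Dll1, the transcriptional repressors Hes1, Hey1 and Heyl, and the feedback inhibitor Nrarp. All 10 were in the table, and 9 of them had a mean normalized count of at least 10 over the libraries and were tested.

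RNA was sequenced from 4 primary murine PDAC cell lines, #1, #3, #5 and #10, each with 1 library after 48 h with trametinib, an inhibitor of the kinases MEK1 and MEK2, and 1 library with the solvent DMSO. Both groups carried the same engineered alleles, among them Ptf1awt/Cre and Trp53loxP/loxP, in which Cre made from one copy of the pancreatic gene Ptf1a removes p53. Each line received trametinib at its own IC50, and neither those doses nor the age of the mice is given in the sources used here. The sources do not say whether the lines came from separate mice. With the line as a block, the treatment p-values measure how the change varied between these lines as they stand. With 1 library per line and treatment the change of a single line has no replicate. Values are normalized counts per gene, and the change of a gene is log2((trametinib + 1)/(DMSO + 1)), a scale that understates changes of low genes.

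Library totals ranged from 30680100 to 36385700 normalized counts, from an estimated 29312600 to 45911200 reads, and 3 reads, used as the floor of detection, corresponded to 2.33 to 3.72 normalized counts. Dusp6, a feedback phosphatase of the MAPK pathway, fell from 7011 ± 2055 to 1310 ± 670 normalized counts (mean ± SD, n = 4 lines), lower in 4 of 4 lines. The ductal keratins Krt7, Krt8, Krt18 and Krt19 and the epithelial cadherin Cdh1 stood at 9734 normalized counts or more in every library, while the epithelial marker Epcam was listed at 0 in 6 of 8 libraries. The 8 ductal markers summed to 221230-348818 normalized counts with DMSO and 113156-222090 with trametinib, and of the 7 tested 1 rose and 5 fell. The 8 acinar genes summed to 39.0-253 with DMSO and 33.5-132 with trametinib, and Cpa1, Cel, Pnlip and Ptf1a were at or under the floor in every library. Summed markers of other cell types were low but spanned higher ranges with trametinib, from 42.3-91.2 to 76.6-1785 normalized counts for endothelium, from 85.4-344 to 417-1244 for fibroblasts and from 150-241 to 236-516 for leukocytes, and their part in the results was not tested. Of 8 endothelial genes 4 were tested, of which Tek and Vwf rose and none fell. These 2 reached 805 and 948 and made up most of the highest sum, while Pecam1 spanned 6.503-15.6 with DMSO and 6.95-14.1 with trametinib, and Emcn and Erg were at or under the floor in every library. Of 8 fibroblast genes 4 were tested and only Col1a1 rose, which carried the sum, and Lum and Dpt were at or under the floor. Of the 7 leukocyte genes measured 4 were tested and only Csf1r rose, and Cd3e and Lyz2 were at or under the floor. In these bulk libraries fewer cells that express a gene and less RNA per cell cannot be told apart.

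With trametinib the receptor Notch2 rose while the 3 ligands fell. A limma model blocked on cell line, with p-values adjusted by Benjamini-Hochberg over 15888 genes. It called 3 of the 9 tested genes higher (Notch2, Hey1 and, from very few reads, Notch3), against 27.3% of all genes tested. Notch3 was tested only through the group in which it was high, so its call adds nothing to this count. With a filter at a mean of 50, which dropped Notch3, 2 members were higher, against 3669 of 12424 genes. The ligands Jag1, Jag2 and Dll1 and the inhibitor Nrarp fell, 4 of 9 against 25.6% of all genes. Notch1 and Hes1 did not pass the test. The majority of all genes tested passed in one direction or the other, and counts of 3 and 4 among 9 are near those shares, so the counts alone are no result about Notch genes. The values of Notch2 and Hey1 were higher with trametinib than with DMSO without any overlap of the groups, which held for 15.1% of all genes. Nrarp was the 1 member whose groups did not overlap in the other direction, against 16.2% of all genes.

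**Figure D1:**
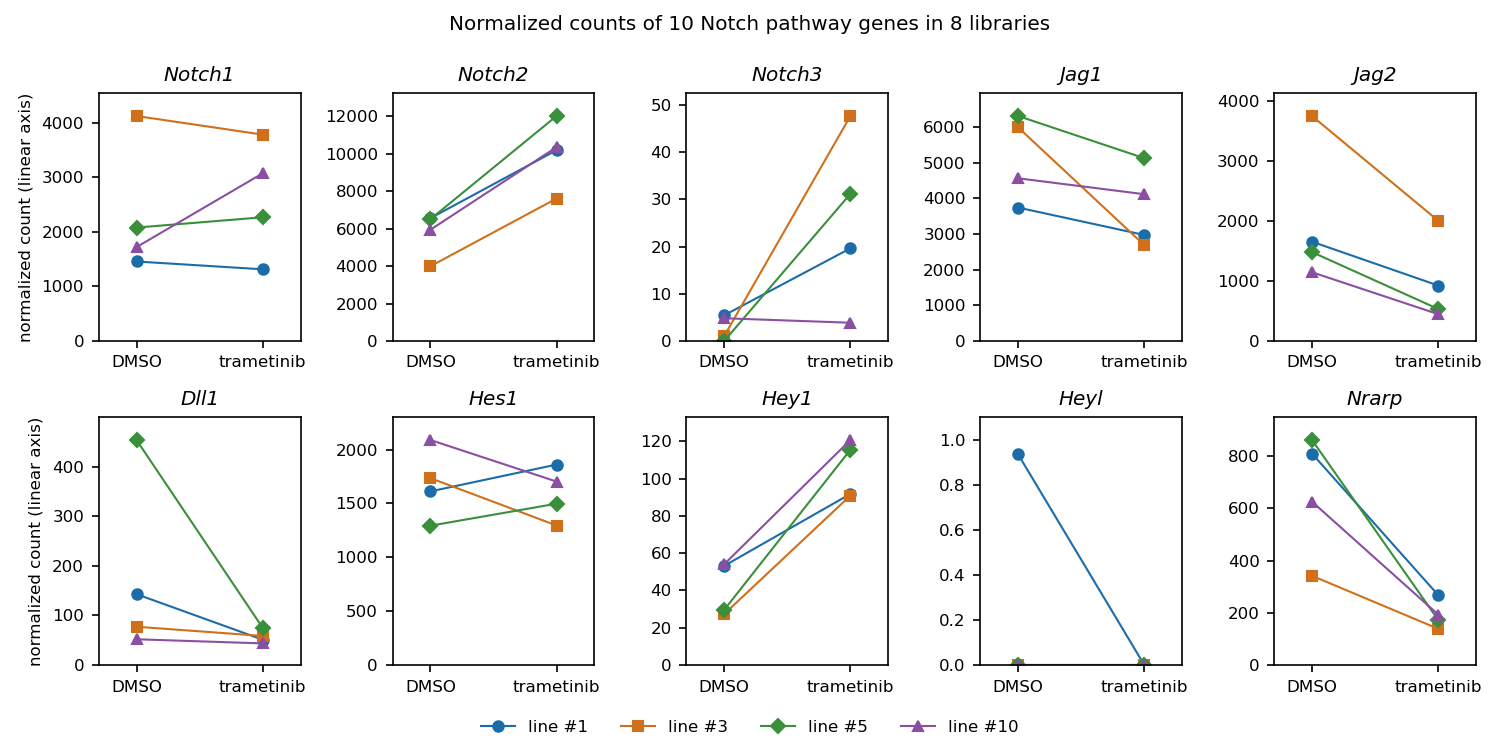
Normalized counts of the 10 Notch pathway genes (linear vertical axes, starting at 0) with DMSO and with trametinib, with each line of the plot joining the 2 libraries of 1 cell line. Notch2 and Hey1 were higher and Jag2 and Nrarp lower with trametinib in 4 of 4 lines, Notch1 and Hes1 moved in both directions, and Heyl did not exceed 0.936.

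Promoter windows were read for the members, to show the sequence in front of their RefSeq start sites. RefSeq windows were found for 7 of the 10 members, named Notch1, Notch2, Notch3, Jag1, Jag2, Dll1 and Nrarp. In the 250 bases before each start, both strands were searched for the core of the RBPJ site (TGGGAA), the core of ETS factor sites (CCGGAA), the AP-1 site (TGANTCA) and the palindromic E-box (CACGTG), a sequence bound by MYC and by proteins of the HEY class, which was added to the search after the windows had been read. Of 32851 windows of this length in the RefSeq table, 21.6% held TGGGAA, 12.03% CCGGAA, 6.75% TGANTCA and 6.02% CACGTG. Of the 8 windows of these 7 members, 1 held an E-box, 1 an AP-1 site, and none held either of the other motifs in its 250 bases, which says only that these letters are not in these windows. The windows of Notch1, Jag2 and the downstream start of Dll1 lay wholly inside the GENCODE gene. For Jag1 126 of the 250 bases lay before the gene. The sequence before the GENCODE gene was therefore not searched for Notch1 and Jag2. The windows of 4 members are printed 5′ to 3′ on the strand of the gene, in the RefSeq build GRCm38.p6, clipped where needed so that no base of the annotated gene is shown, with the motif matches in capitals. They are the member with the largest fall, the upstream start of a ligand that fell, and the receptors Notch2, which rose, and Notch3, which was called higher from few reads.
Nrarp, chr2:25180508-25180757, plus strand: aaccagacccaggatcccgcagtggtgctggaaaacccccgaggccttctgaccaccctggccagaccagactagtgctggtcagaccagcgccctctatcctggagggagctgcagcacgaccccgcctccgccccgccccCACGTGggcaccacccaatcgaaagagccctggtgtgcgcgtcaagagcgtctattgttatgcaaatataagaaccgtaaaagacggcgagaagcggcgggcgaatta
Dll1, chr17:15376933-15377182, minus strand: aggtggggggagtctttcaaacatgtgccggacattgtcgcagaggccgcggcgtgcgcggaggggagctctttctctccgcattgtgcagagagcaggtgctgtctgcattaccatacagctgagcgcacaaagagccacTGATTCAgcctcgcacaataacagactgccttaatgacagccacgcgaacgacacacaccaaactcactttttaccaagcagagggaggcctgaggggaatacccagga
Notch2, chr3:98013288-98013526, plus strand: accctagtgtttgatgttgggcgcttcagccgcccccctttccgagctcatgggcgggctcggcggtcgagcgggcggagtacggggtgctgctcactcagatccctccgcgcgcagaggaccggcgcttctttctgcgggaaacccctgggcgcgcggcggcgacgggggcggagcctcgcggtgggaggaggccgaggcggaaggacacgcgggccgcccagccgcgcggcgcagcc
Notch3, chr17:32166891-32167140, minus strand: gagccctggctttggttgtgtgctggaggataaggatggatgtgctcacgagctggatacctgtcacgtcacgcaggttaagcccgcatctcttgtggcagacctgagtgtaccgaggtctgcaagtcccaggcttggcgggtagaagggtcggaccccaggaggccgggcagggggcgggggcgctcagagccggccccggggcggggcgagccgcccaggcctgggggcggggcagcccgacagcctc
The E-box of Nrarp lay with its first base at position -108 from the start (chr2:25180650-25180655), and the AP-1 site of Dll1, TGATTCA, at -109 (chr17:15377035-15377041). The Notch2 and Notch3 windows held no match to any of the 4 motifs. A match of letters is not evidence that a factor binds there.

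Per kilobase of the longest transcript, Notch2 was the most abundant receptor in 3 of 4 DMSO libraries and in 4 of 4 trametinib libraries. In the exception, line #3 with DMSO, the order of Notch1 and Notch2 depended on the gene length used. On GRCm38 the gene lies on the plus strand at chr3:98013527-98150361 (GENCODE M21). In lines #1, #3, #5 and #10 its normalized counts were 6560, 3990, 6506 and 5943 with DMSO, and 10196, 7611, 12024 and 10358 with trametinib. The lowest trametinib library, that of line #3, lay above the highest DMSO library. The mean rose from 5750 ± 1206 to 10047 ± 1822 (SD, n = 4), a log2 fold change of 0.81 (standard error 0.086, limma adjusted p = 0.00067), or 1.76-fold. The rise was similar in size between lines, from 0.64 in line #1 to 0.93 in line #3 on the log2 scale, and Notch2 passed the test under 14 of 14 alternative settings (adjusted p 0.00045 to 0.0185).

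Notch1, the receptor most studied in T cell leukemia (minus strand, chr2:26457903-26516663), showed no common direction. Its normalized counts in lines #1, #3, #5 and #10 were 1455, 4120, 2076 and 1718 with DMSO, and 1312, 3779, 2265 and 3070 with trametinib. The change was -0.15 in line #1, -0.12 in line #3, 0.13 in line #5 and 0.84 in line #10, so that line #10 moved by far more than the others. The fitted log2 change was 0.17 (standard error 0.17, limma adjusted p = 0.43), and without line #10 it was -0.049 (adjusted p = 0.76).

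Notch3, a receptor best known from the smooth muscle cells and pericytes of vessels (minus strand, chr17:32120820-32166852), was at the edge of detection. In lines #1, #3, #5 and #10 it had 5.43, 1.04, 0 and 4.80 normalized counts with DMSO, where the 0 is a value listed in the table, and 19.6, 47.7, 31.2 and 3.85 with trametinib. It passed the filter on low values only through the trametinib libraries of lines #1, #3 and #5, so a difference was built into its being tested, and the DMSO libraries of lines #3 and #5 were at or under the floor. By counts of about 7 and 20 reads, line #1 was 3.60-fold higher with trametinib (95% interval 1.46 to 10.1, counting error only). Line #3, with about 1 and 51 reads, was 45.9-fold higher (7.88 to 1848), and line #5 was at least 8.37-fold higher than the floor of 3 reads in its DMSO library. Line #10 had about 5 and 4 reads, a ratio of 0.803 (0.159 to 3.73), in which no change was detectable. The fitted log2 fold change of 2.75 (standard error 0.91, limma adjusted p = 0.040) therefore depends on the pseudocount, from 3.80 with 0.1 to 1.77 with 5. It also lost the threshold without line #1 (3.11, adjusted p = 0.072), without line #3 (2.14, adjusted p = 0.12) and without line #5 (1.999, adjusted p = 0.14), and passed 6 of 13 alternatives. The sum of the other 6 mural cell markers in the table spanned 8.31-32.5 normalized counts with DMSO and 20.8-123 with trametinib, ranges that overlapped. Of these 6 markers only Cspg4 passed the filter and it rose, from 5.38-19.3 to 10.5-96.4, while Kcnj8 was at or under the floor in every library. The part of such cells in the Notch3 values was not tested.

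The ligands fell together, by different amounts in different lines. Jag2 (minus strand, chr12:112907819-112929776), a Serrate-type ligand, had, in lines #1, #3, #5 and #10, DMSO values of 1652, 3744, 1478 and 1143 normalized counts, and 922, 2001, 532 and 445 with trametinib. Each line lost between 0.84 and 1.47 on the log2 scale, yet the groups overlapped because line #3 with trametinib remained above the other DMSO libraries. The mean fell from 2004 ± 1179 to 975 ± 715 (SD, n = 4), a log2 fold change of -1.14 (standard error 0.14, limma adjusted p = 0.00093), or 2.21-fold lower. Jag2 passed 13 of 14 alternatives, and the one it missed left out the block for the cell line (adjusted p = 0.12).

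Jag1, the other Serrate-type ligand (minus strand, chr2:137081456-137116644), was lower in 4 of 4 lines but mostly by little. Its normalized counts were 3740, 5989, 6308 and 4561 with DMSO, and 2972, 2686, 5124 and 4115 with trametinib, in the same order of lines. The change was -1.16 in line #3 and between -0.33 and -0.15 in the others, and the groups overlapped. The fall from 5149 ± 1208 to 3724 ± 1119 (SD, n = 4) corresponded to a log2 fold change of -0.48 (standard error 0.17, limma adjusted p = 0.048), and it passed 5 of 14 alternatives. Without line #3 it was -0.26 (adjusted p = 0.025), while the call was lost without line #1 (-0.53, adjusted p = 0.092), line #5 (-0.55, adjusted p = 0.084) or line #10 (-0.60, adjusted p = 0.052).

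Dll1, a Delta-type ligand (minus strand, chr17:15367354-15376872), was the least abundant of the 3 ligands. With DMSO it had 143, 77.2, 454 and 51.8 normalized counts in lines #1, #3, #5 and #10, and with trametinib 51.0, 58.5, 75.0 and 43.4. Line #5 stood highest among the widely spread DMSO libraries, and the trametinib libraries lay close together. The change was -1.47 in line #1 and -2.58 in line #5, against -0.39 in line #3 and -0.25 in line #10. The fitted log2 change was -1.17 (standard error 0.41, limma adjusted p = 0.046), the call held under 8 of 14 alternatives, and it was lost without line #1 (-1.07, adjusted p = 0.14) and without line #5 (-0.70, adjusted p = 0.15).

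**Figure D2:**
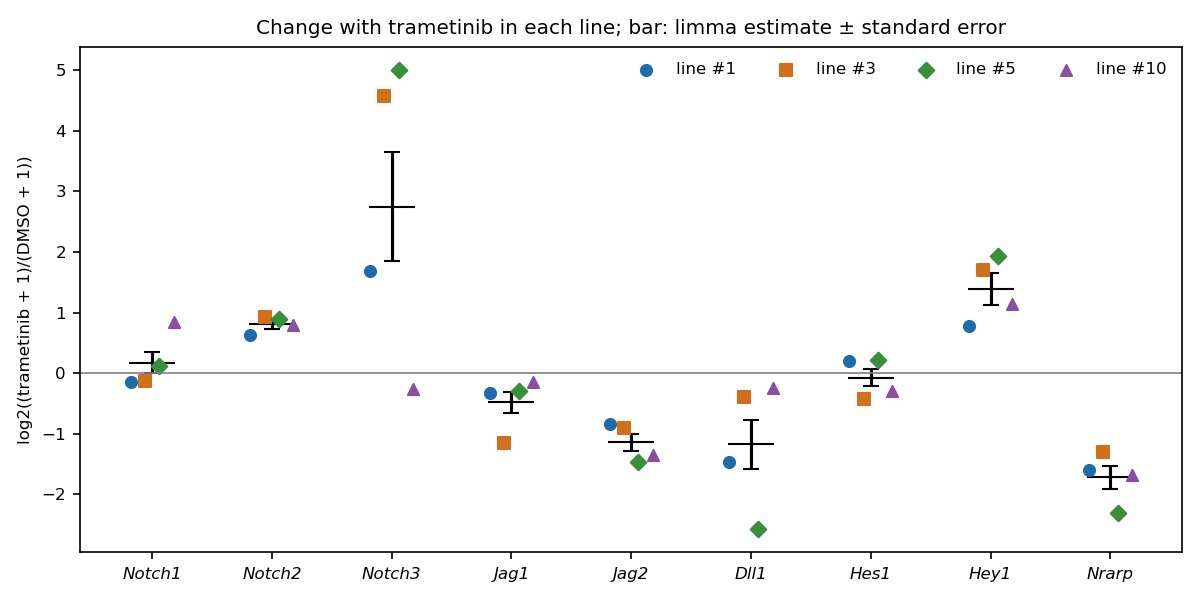
Change of each of the 9 tested genes in each cell line (points) and the limma estimate with its standard error (horizontal bar and whiskers), on a log2((trametinib + 1)/(DMSO + 1)) axis. Notch2 and Hey1 lie above 0 and Jag1, Jag2, Dll1 and Nrarp below 0 in 4 of 4 lines, and the points of Notch3 spread from -0.26 to 5.01.

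Among the target genes, the classic readouts of the pathway did not move together. Nrarp (plus strand, chr2:25180758-25183339), an ankyrin-repeat protein that is switched on by Notch and in turn dampens the Notch nuclear complex, showed the largest fitted fall of the 9 tested genes. In lines #1, #3, #5 and #10 it had DMSO values of 811, 342, 863 and 626 normalized counts, and 268, 139, 173 and 193 with trametinib. The highest trametinib library, that of line #1, lay below the lowest DMSO library, that of line #3. The mean fell from 660 ± 235 to 193 ± 54.8 (SD, n = 4), a log2 fold change of -1.72 (standard error 0.18, limma adjusted p = 0.00068), or 3.30-fold lower. On the log2 scale the lines changed by -1.59, -1.296, -2.31 and -1.69, and Nrarp passed 14 of 14 alternatives.

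Hes1, the bHLH repressor most often used to read Notch activity in the pancreas (plus strand, chr16:30064384-30067796), did not follow Nrarp. Its normalized counts were 1612, 1735, 1293 and 2089 with DMSO, and 1861, 1295, 1497 and 1703 with trametinib, in the same order of lines. Lines #1 and #5 were higher by 0.21 each on the log2 scale, and lines #3 and #10 changed by -0.42 and -0.29. The mean went from 1682 ± 329 to 1589 ± 246 (SD, n = 4), a log2 fold change of -0.07 (standard error 0.14, limma adjusted p = 0.67) that turned to 0.053 with libraries rescaled to equal totals. Hes1 passed none of 14 alternatives.

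Hey1, a related bHLH repressor (minus strand, chr3:8663359-8667256), rose from a low level. In lines #1, #3, #5 and #10 its DMSO values were 53.2, 27.3, 29.6 and 54.1 normalized counts, against 91.8, 90.9, 115 and 121 with trametinib. The rise was larger in lines #3 and #5, whose DMSO values were the lowest, at 1.70 and 1.93 on the log2 scale, than in lines #1 and #10, at 0.78 and 1.14. The mean went from 41.0 ± 14.6 to 105 ± 15.6 (SD, n = 4), a log2 fold change of 1.39 (standard error 0.26, limma adjusted p = 0.0049), or 2.62-fold higher. The call held under 14 of 14 alternatives, with 0.91 under quantile normalization as the smallest value. Hey1 is also expressed in endothelium. Of 8 endothelial markers 4 were tested, of which Tek and Vwf rose and none fell. Pecam1 spanned a similar range with DMSO and with trametinib. Emcn was at or under the floor in every library, and Erg was listed at 0 in every library. The part of such cells in the Hey1 values was not tested.

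Heyl, another HEY repressor (plus strand, chr4:123233556-123249875), was at 0.936 normalized counts, about 1 read, in line #1 with DMSO and was listed at 0 in the other 7 libraries. It was under the floor of 3 reads everywhere, so neither its presence nor a change could be seen at this depth.

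The pairs within each role gave the clearest contrast between Hes1 and Hey1. The change of Hes1 was below that of Hey1 in 4 of 4 lines, by 1.46 ± 0.66 on the log2 scale (SD, n = 4, two-sided exact sign-flip test, p = 0.125, adjusted p = 0.44 over 7 pairs). With 4 lines 0.125 is the smallest p this test can give, so no pair could pass. The change of Notch1 minus that of Notch2 was -0.64 ± 0.47, below 0 in lines #1, #3 and #5 and 0.04 in line #10. Jag1 minus Jag2 was 0.66 ± 0.69, above 0 in 3 of 4 lines. Jag2 minus Dll1 was 0.03 ± 1.02, with 2 lines on each side of 0. Pairs with Notch3 spread from -4.88 to 1.09, and Jag1 minus Dll1 was 0.69 ± 1.32, which was 0.16 without line #5 and 1.17 without line #3. Both genes of a pair are read in the same libraries, so a scaling factor of a library cancels in these differences except for low genes such as Notch3, where the pseudocount counts.

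Levels of different genes were compared as normalized counts per kilobase of the longest annotated transcript. With DMSO the order of the mean levels per kilobase was Hes1 (1146 ± 224, SD, n = 4), Jag1 (918 ± 215), Notch2 (548 ± 115), Jag2 (392 ± 231), Nrarp (256 ± 91.1), Notch1 (247 ± 128), Dll1 (50.7 ± 51.9), Hey1 (16.9 ± 6.01), Notch3 (0.352 ± 0.337) and Heyl. Jag1 exceeded Notch2, Notch1 exceeded Dll1 and Hey1 exceeded Notch3 in 4 of 4 lines. Hes1 exceeded Jag1, and Notch2 exceeded Jag2, in 3 of 4 lines. Jag2 and Nrarp were each above the other in 2 lines, and the means of Nrarp and Notch1 differed by less than their spread. With trametinib Notch2 (957 ± 174 per kilobase) stood above Jag1 (664 ± 199) in 4 of 4 lines, as did Hey1 (43.2 ± 6.44) above Dll1 (15.9 ± 3.77), and Notch1 (275 ± 112) stood above Jag2 (191 ± 140) in 3. Hes1 remained highest in the mean at 1082 ± 168, above Notch2 in 3 of 4 lines. The first place of Hes1 rests on the length used. The union of its exons is 2037 bases, against 1468 in its longest transcript, but 5827 against 5612 for Jag1 and 10782 against 10500 for Notch2. Per kilobase of that union, the mean of Hes1 lay below that of Jag1 with DMSO and below that of Notch2 with trametinib.

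Adding members of a role per kilobase showed receptor and ligand transcripts crossing. The sum of Notch1, Notch2 and Notch3 per kilobase was 779, 814, 838 and 748 with DMSO in lines #1, #3, #5 and #10, and 1112, 1129, 1388 and 1310 with trametinib. The sum of Jag1, Jag2 and Dll1 per kilobase was 1030, 1822, 1540 and 1051 with DMSO, and 724, 887, 1038 and 833 with trametinib. The receptor sum was thus 1.39-fold to 1.75-fold higher and the ligand sum 0.487 to 0.792 of its DMSO level. Within the receptor sum Notch2 was higher in 4 of 4 lines, Notch1 was lower in lines #1 and #3 and did not pass the test, and Notch3 was at most 0.527% of it. The ratio of receptor to ligand sums, in which a scaling factor of a library cancels, went from 0.756, 0.447, 0.544 and 0.711 to 1.53, 1.27, 1.34 and 1.57. It was below 1 in each DMSO library and above 1 in each trametinib library, 2.03-fold to 2.85-fold higher. These sums are a description of transcripts with no test, and say nothing of protein at the cell surface.

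**Figure D3:**
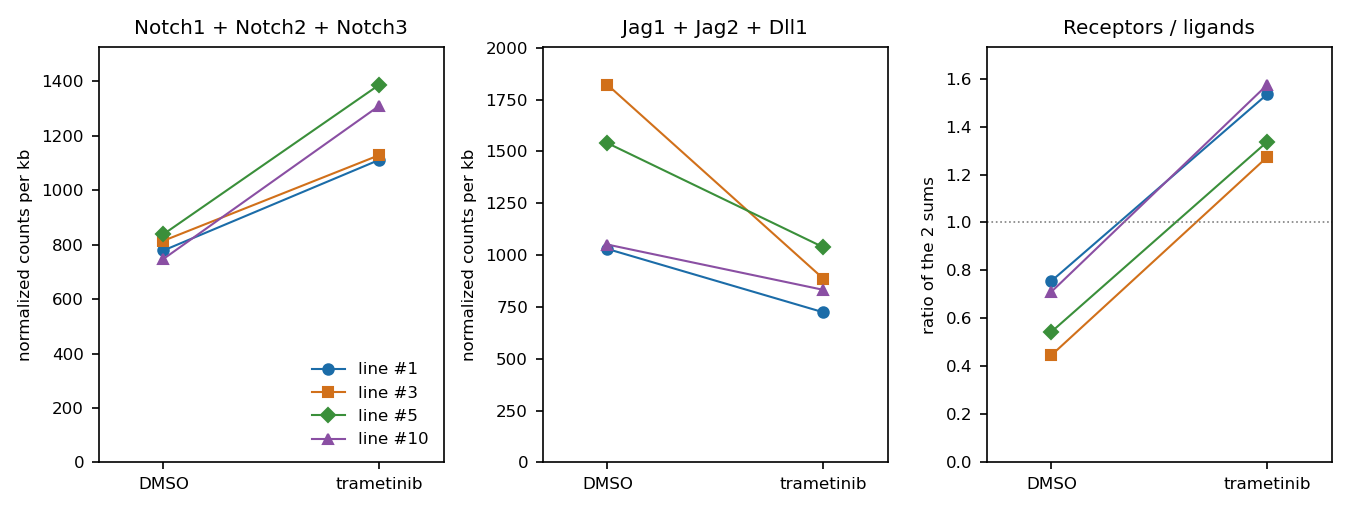
Summed normalized counts per kilobase of the 3 receptors and of the 3 ligands, and the ratio of the 2 sums, with DMSO and with trametinib, with 1 joined pair of points per cell line and axes starting at 0. The ratio lies between 0.447 and 0.756 with DMSO and between 1.27 and 1.57 with trametinib (dotted line, equal sums).

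Within the receptors, the share of Notch2 in the summed level per kilobase was 69.1% ± 15.2 with DMSO and 77.3% ± 10.1 with trametinib (SD, n = 4). The difference was 8.21 ± 7.37 percentage points, with a higher share in 3 of 4 lines (two-sided exact sign-flip test, p = 0.25), and it was 5.11 points without line #3. Line #3 differed from the others in this share, with 46.7% Notch2 and 53.3% Notch1 with DMSO, and 64.2% and 35.3% with trametinib. That order with DMSO rests on the length used. The union of exons is 14232 bases for Notch1, against 9488 in its longest transcript, and 10782 against 10500 for Notch2. With the union of exons Notch2 exceeded Notch1 in this library too, and the mean difference in the Notch2 share was 6.97 points. Notch3 never exceeded 0.527%. Within the ligands, Jag1 took 68.4% ± 8.38 with DMSO and 75.8% ± 16.1 with trametinib, higher in 3 of 4 lines (exact p = 0.25), a difference of 7.38 ± 8.44 points that was 11.4 without line #3 and 4.84 without line #5. In line #3 its share went the other way, from 58.6% to 54.0%. Dll1 took 8.24% in line #5 with DMSO and at most 3.88% in any other library.

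Of the 9 tested members 3 also differed between lines, with both treatments in one fit, and the others did not pass. Differences between lines were not tested within a treatment. An F test of the line terms in limma passed for Notch1 (adjusted p = 0.024), Notch2 (adjusted p = 0.026) and Jag2 (adjusted p = 0.0043), 3 of 9 members against 27.6% of all genes tested, a share near that background. Line #3 had the highest Notch1 (mean of both treatments 3950 normalized counts, against 1383 to 2394) and Jag2 (2872, against 794 to 1287) and the lowest Notch2 (5801, against 8150 to 9265). Jag2 passed this test under 13 of 13 alternatives, Notch1 under 10 and Notch2 under 7. Notch1 lost the threshold without line #1 (adjusted p = 0.093), without line #3 (0.079) and without the eBayes trend (0.080). Notch2 lost it without line #3 (adjusted p = 0.33), line #5 (0.063) or line #10 (0.055). It also lost it with quantile normalization (0.070), with centring on the library median (0.059) and without the eBayes trend (0.086). Line #3 also combined the steepest fall of Jag1 with the highest Notch3 value with trametinib.

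The genes whose normalized counts followed a member most closely over the 8 libraries are given as a description, since these libraries share lines and scaling. For Notch1 they were C730034F03Rik (Pearson r of log2 values 0.96), Gk5 (0.96) and Dqx1 (0.95), and for Jag1 Usp5 (0.98), Zc3hav1 (0.96) and Mlxipl (0.96). For Hes1 they were 9330151L19Rik (0.95), the histone gene Hist1h2ag (0.95), whose reads may be shared with its near-identical copies, and Rbks (0.95). None of them is one of the 10 members.

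Beyond the 10 members, 54 of 55 other listed genes of the pathway were in the table and 43 were tested. Of these 16 were called higher and 6 lower, against 27.3% and 25.6% of all genes tested. With libraries rescaled to equal totals 22 were higher and 3 lower, against 5315 and 3284 of the 15888 genes tested. Without this rescaling the median log2 fold change was 0.17, against 0.07 over all genes tested. The counts by role below, also without it, are a description of few genes each, to be read against 27.3% and 25.6% of all genes. Rbpj, the DNA-binding partner of every Notch receptor, fell from 6112 ± 1171 to 3840 ± 460 normalized counts (SD, n = 4) without overlap of the groups, a log2 fold change of -0.66 (standard error 0.12, limma adjusted p = 0.0044). Of 7 genes of the nuclear complex, 2 rose and 2 fell. Of 7 corepressor genes 2 rose and 1 fell, namely Tle1, a Groucho-type corepressor (-0.68, standard error 0.12, adjusted p = 0.0035).

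Lfng, a fringe glycosyltransferase that modifies the receptors and shifts their preference between Delta-like and Jagged ligands, rose from 288 ± 117 to 1273 ± 361 normalized counts (SD, n = 4), a log2 fold change of 2.21 (standard error 0.35, limma adjusted p = 0.0024). It was higher in 4 of 4 lines, most in line #3 at 3.71 and otherwise at 1.55 to 1.83. Of the 5 glycosylation and maturation genes tested, 1 rose and 1, the related Rfng (-0.31, adjusted p = 0.048), fell. Among 5 genes for ligand endocytosis 2 were called higher and 1 lower. Neurl1a, a neuralized-type ubiquitin ligase, went from 9.66 ± 6.03 to 55.5 ± 29.3 normalized counts (fitted log2 fold change 2.47, standard error 0.28), but its DMSO mean was below the filter, so like Notch3 it was tested only through the group in which it was high. The related Neurl1b fell from 1238 ± 816 to 505 ± 122 (-1.13, standard error 0.32, adjusted p = 0.024), with -2.51 in line #3 and -0.73 to -0.59 in the others. Among 9 genes for receptor cleavage 4 were called higher and 1 lower, against 27.3% and 25.6% of all genes. The rise of the γ-secretase subunit gene Aph1c (2.49, standard error 0.46, adjusted p = 0.0041) went from 13.5 ± 8.77 to 101 ± 109 normalized counts, with 4.05 in line #3 and 1.32 to 2.34 in the others on the log2 scale, and reads of this gene may be split with its close relative Aph1b. Of the others, chosen after their values were seen, the protease gene Adam10 rose by 0.88 (standard error 0.18, adjusted p = 0.0070) and Psen2, a catalytic subunit of γ-secretase, fell by 0.48 on the log2 scale (adjusted p = 0.042). Of 7 genes for inhibitors and turnover 4 were called higher and none lower, against 27.3% and 25.6% of all genes. The receptor gene Notch4 (log2 fold change 0.06, standard error 0.70, adjusted p = 0.95) did not pass, and of the HES and HEY genes outside the members only Hes6 reached the filter, with a rise of 1.00 (standard error 0.12, adjusted p = 0.0010).

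**Figure D4:**
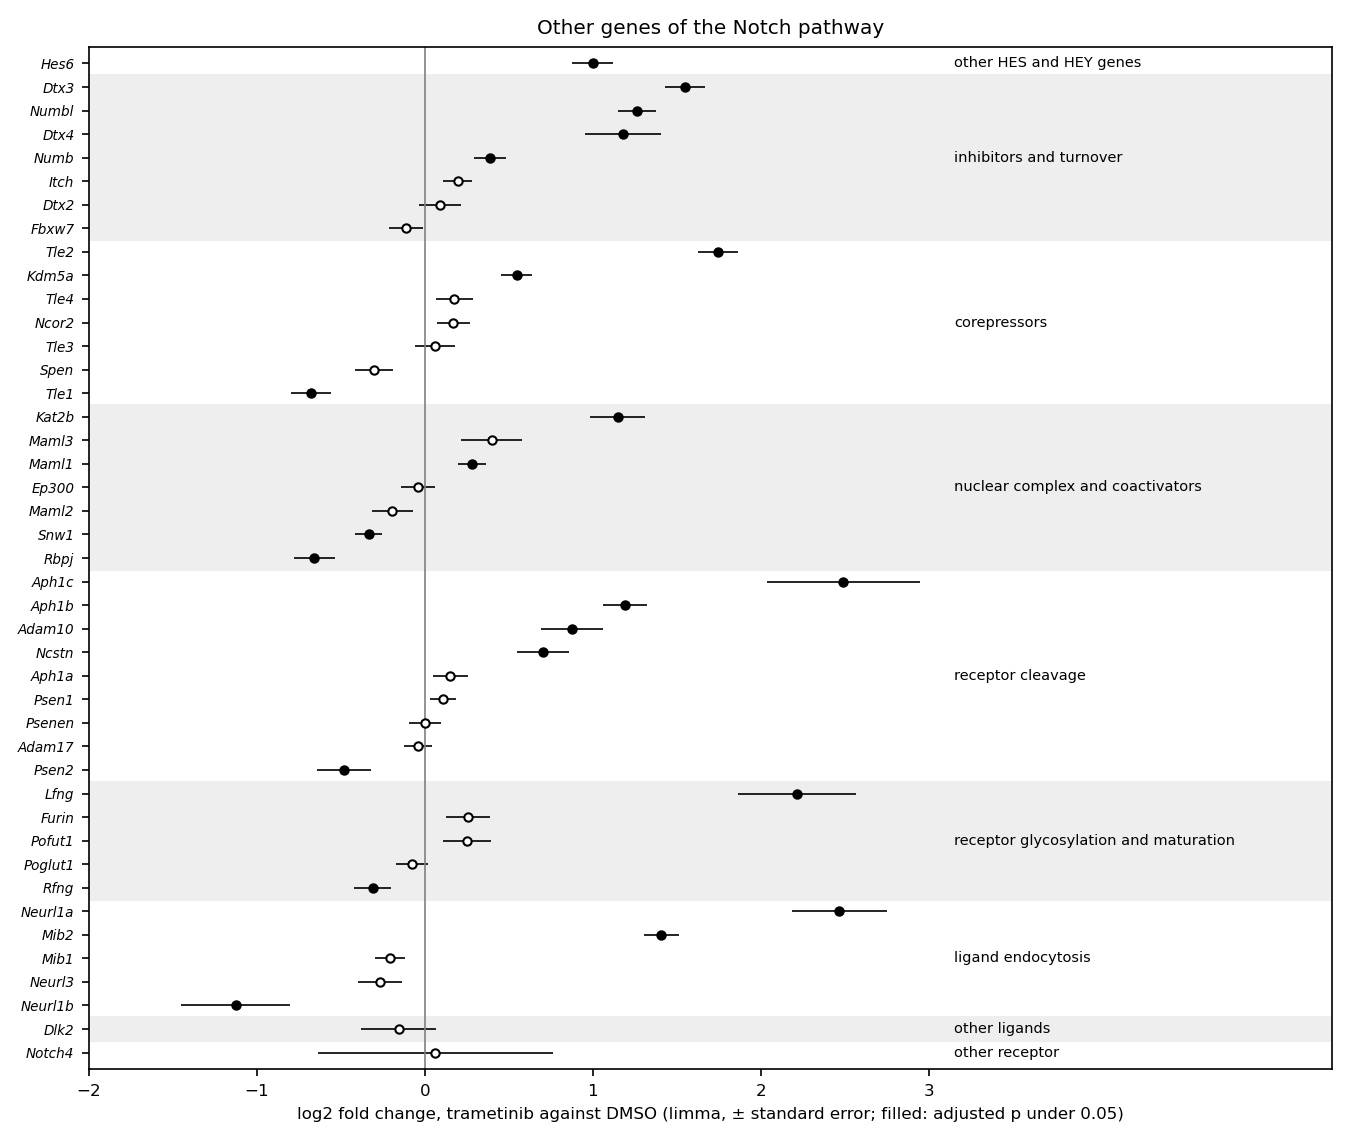
Log2 fold change with its standard error, from limma, of the 43 tested genes of the Notch pathway other than the 10 members, by role, with filled points for an adjusted p under 0.05. Aph1c, Neurl1a and Lfng lie above 2, and the lowest point is Neurl1b at -1.13.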

How the data were processed

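RNA from 8 libraries was prepared with a stranded kit for polyadenylated mRNA and sequenced in pairs of reads. The authors deposited 1 table of normalized counts per gene, that is a signal already scaled between libraries before it was deposited by the authors. The submitters' processing notes name CASAVA 2.17, Salmon 0.12, DESeq2 1.18 and mm10, and give them no role. Whether reads were counted by strand is not given in the sources used here. Exons of Notch1, Notch3, Dll1 and Nrarp overlap antisense genes and those of Notch2 a gene on the same strand, and reads there may be shared.

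The table holds values that are not whole reads, so log2(value + 1) was tested with limma 3.58.1 in R 4.3.3 (lmFit, eBayes with trend, cell line as a block), two-sided, for the 15888 genes that averaged 10 or more. The threshold was a Benjamini-Hochberg adjusted p of 0.05. Both libraries of a number come from the same cell line and deviated together from the treatment means (correlation across genes 0.63 to 0.72), which sets the pairing. Reads were estimated from the smallest step between low values, of which 57.1% to 68.4% lay within 0.05 of a whole multiple, so whole reads were not recovered. Intervals (95%, exact binomial for a ratio of counts) cover counting error only. Shares and pairs were tested by exact sign flips (a permutation test) of the 4 line values, and pairs with Heyl were not computed. Shares were also computed with the union of exons as gene length. The F test compared the 4 line terms in the same fit. The fit was also run on simulated data, and no result of that run is used here. Python 3.11.15, numpy 2.4.6, pandas 2.3.3, scipy 1.17.1 and matplotlib 3.10.9 were used.

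One further allele of the mouse model is not reported here. The members and lists were chosen with earlier results of these data known. Named were all 10 members, Dusp6, the 3 largest rises and 3 largest falls of the pathway list that passed in the same direction in 4 of 4 lines, and the 3 genes most like Notch1, Jag1 and Hes1. Rfng, Hes6, Notch4, Adam10 and Psen2 were named after their values were seen. Gene positions and transcript lengths are from GENCODE M21 on GRCm38, matched by symbol (96.5% of tested genes). Promoter windows are from RefSeq, GRCm38.p6. The 14 alternatives were quantile normalization, rescaling to equal totals, centring on the library median, pseudocounts of 0.1 and 5, no filter, a filter at 50, no block, eBayes without trend, eBayes with robust estimation, and leaving out each line.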

Additional observations from a re-analysis of the deposited data

Results flagged for a closer look

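Values of 3 members had opposite signs of change between lines. The difference between lines was not tested, since each line had 1 library per treatment. Notch1 changed by -0.15 on the log2 scale in line #1, the lowest, and by 0.84 in line #10, the highest. Notch3 changed by -0.26 in line #10 and by 5.01 in line #5, the latter against a DMSO library listed at 0, and the change in line #10, from about 5 to 4 reads, was within counting error. Hes1 changed by -0.42 in line #3 and by 0.21 in line #5. No value of a member stood apart within its group of 4 by Dixon's test in 27 groups of values, in which chance alone would flag about 1.35.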

How the results depend on the processing

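Without the block for the cell line 3 members were higher, as with it, and 1 (Nrarp) was lower instead of 4, 11 pathway genes were higher instead of 16 and 2 lower instead of 6, and 2205 of all genes were higher and 2347 lower, instead of 4341 and 4075. With the paired libraries of each line blocked, as reported, Jag1, Jag2 and Dll1 passed as well. Counts of members lower were 2 with equal totals, 2 without the filter and 2 without the eBayes trend, each time without Jag1 and Dll1, and 2 to 4 when a line was left out. Pathway genes lower were 3 without the trend, and 1 member differed between lines without the trend (Jag2). With equal totals 3 members were higher against 2 lower, 22 pathway genes higher against 3 lower, and 5315 of all genes higher against 3284 lower. Equal totals moved the median of all genes by 0.13 and quantile normalization by -0.10 on the log2 scale. Small values changed sign: Hes1 was 0.053 with equal totals and -0.17 to 0.041 when a line was left out, Notch1 was -0.049 to 0.28 when a line was left out, and the change of Jag2 minus that of Dll1 was -0.0076 with a pseudocount of 5 and -0.33 to 0.41 when a line was left out. Of the recomputed changes of single members, 99 kept their direction and their side of the threshold, and 23 kept their direction but no longer passed. The cause of these changes was not tested. Depth limits Notch3 with DMSO and Heyl, which had 7 reads or fewer.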
